A study of Mus musculus with 2 samples.

Results

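The 36 genes described here carry the signals of the TGF-beta and BMP family in the stromal cells of mouse subcutaneous white fat. They comprise 9 ligands, 4 latent TGF-beta binding proteins, 6 receptors, 7 SMAD proteins, 4 extracellular antagonists and 6 target genes. They were chosen by name, and all 36 were found among the 32246 gene symbols of the count matrices. The cells came from Paqr4 transgenic mice and from WT mice, with 1 droplet single-cell RNA-seq library for each genotype. Paqr4 encodes a membrane protein of the progestin and adipoQ receptor family, and the study asked how it affects the pool of adipocyte progenitors. In both genotypes the fat was digested with collagenase and the CD45-negative cells were sorted, which removes most blood leukocytes. Cells of 3 mice were pooled, without a statement of whether that number is per genotype. The labels give no promoter for the transgene, and no strain, age or sex.

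With 1 library for each genotype, no difference between the genotypes could be tested. Levels are given as UMIs (unique molecular identifiers, which count captured mRNA molecules) of a gene per 1000000 UMIs of the cell class in that library, abbreviated UPM. Ratios are log2 of the Paqr4 transgenic over the WT level. All intervals are 95% intervals of counting error, so they say nothing about how mice differ. The libraries tag 3′ ends of transcripts, so levels are compared for a gene between cells and not between genes.

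Of 43084906 UMIs in the Paqr4 transgenic and 44145257 in the WT library, 1521 and 1328 cells were kept, at median depths of 18711 and 21612.5 UMIs. They shared 2 of the 3074 and 2678 barcodes with at least 1000 UMIs. Haemoglobin transcripts made up 29.1% of the Paqr4 transgenic and 28.2% of the WT UMIs. In progenitors Paqr4 itself was at 9.29 UPM in the Paqr4 transgenic library (251 UMIs) and 7.95 UPM in the WT library (210 UMIs), a log2 ratio of 0.22 with an interval of −0.05 to 0.50. An excess of Paqr4 was therefore not detected in these progenitor counts. The labels give no promoter for the transgene, so the cells meant to express it are not known. Xist, which is transcribed from the inactive X chromosome of female cells, was at 0.148 UPM in Paqr4 transgenic and 954 UPM in WT progenitors. The Y-linked gene Ddx3y was at 109 UPM in Paqr4 transgenic and 0.908 UPM in WT progenitors. Sex and genotype therefore cannot be told apart in any comparison of the libraries below.

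TGF-beta ligands are secreted in a latent form that is tethered to the matrix by latent TGF-beta binding proteins and is released there. Released TGF-beta and the activins signal through SMAD2 and SMAD3, whereas BMPs signal through SMAD1 and SMAD5, and both groups share SMAD4. SMAD6 and SMAD7 are feedback inhibitors, and follistatin, gremlin and chordin-like proteins hold ligands away from their receptors. In fat, TGF-beta and activin signalling is known to restrain adipocyte differentiation of progenitors, and BMP ligands such as BMP4 to promote commitment to it.

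Among the target genes, the connective tissue genes Ccn1, Ccn2 and Tgfbi are classic readouts of TGF-beta, and the Id genes of BMP. The bases upstream of the start site are shown because SMAD complexes act through DNA motifs of the kinds marked. The RefSeq promoter table (GRCm38.p6) held 4 of these 6 targets, and the part of each upstream 250 bases that lies outside annotated exons is printed 5′ to 3′ in the gene's own orientation. Capitals mark matches to the SMAD-binding CAGA box (CAGAC, or GTCTG on the other strand), to the GC-rich SMAD box of BMP targets (GGCGCC, the same on both strands) and to the TEAD site (GGAATG, or CATTCC on the other strand).
Ccn1, chr3:145649986-145650235, minus strand: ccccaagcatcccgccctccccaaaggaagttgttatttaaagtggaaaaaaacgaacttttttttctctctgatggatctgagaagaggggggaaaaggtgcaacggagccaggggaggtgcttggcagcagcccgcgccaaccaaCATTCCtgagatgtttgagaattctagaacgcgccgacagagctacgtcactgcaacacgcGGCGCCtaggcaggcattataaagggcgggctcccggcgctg
Tgfbi, chr13:56609336-56609522, plus strand: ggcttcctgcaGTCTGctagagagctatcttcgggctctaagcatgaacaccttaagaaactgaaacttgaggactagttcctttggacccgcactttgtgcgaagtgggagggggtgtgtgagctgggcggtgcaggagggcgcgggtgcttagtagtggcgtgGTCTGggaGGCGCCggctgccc
Id2, chr12:25096254-25096342, minus strand: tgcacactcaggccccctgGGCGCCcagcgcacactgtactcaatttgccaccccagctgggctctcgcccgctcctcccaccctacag
In Ccn1, the GC-rich SMAD box began 42 bases and the TEAD site 103 bases upstream of the RefSeq start. Tgfbi had CAGA boxes 239 and 85 bases upstream and a GC-rich SMAD box 77 bases upstream. In Id2, a GC-rich SMAD box began 231 bases upstream. The window of Id3 lies wholly inside an annotated exon and is not shown, and it held CAGA boxes 167 and 68 bases upstream and a TEAD site 203 bases upstream. The 3 motifs, in the order given, occur in 42.2%, 9.59% and 12.6% of the 32851 promoters of the same length in the table. None of the motifs overlapped another, and a match describes letters only, not bound protein.

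Cells were clustered without the 36 genes, but the states were drawn from the same cells, so levels across states are a description without a test. Progenitors made up 1389 of the Paqr4 transgenic and 1161 of the WT cells (91.3% and 87.4%). Their defining markers Pdgfra, Dcn, Col1a1, Col1a2, Col3a1 and Lum were all present, at a summed 17381 UPM in Paqr4 transgenic and 16819 UPM in WT progenitors. Progenitors split into 5 states. The Dpp4-like state, known as an early interstitial progenitor, held 13.8% of Paqr4 transgenic and 20.3% of WT progenitors. Icam1-like cells, known as preadipocytes committed to the fat lineage, made up 30.2% of Paqr4 transgenic and 24.8% of WT progenitors. F3-like cells made up 24.8% of Paqr4 transgenic and 16.4% of WT progenitors. The other states carried no fixed name and are called by their leading genes: Adamts4/Tfpi2-led cells (22.9% of Paqr4 transgenic and 34.9% of WT progenitors) and Nkain3/Itgbl1-led cells (8.35% and 3.62%, 116 and 42 cells). Tgfbi was itself among the leading genes of the Nkain3/Itgbl1-led state and Chrdl1 among those of the F3-like state. Blood endothelial cells numbered 79 in the Paqr4 transgenic and 95 in the WT library, with median depths of 7584 and 9857 UMIs, and carried all 8 endothelial markers at a summed 10717 and 12394 UPM.

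The highest progenitor state was the same in both libraries for 21 of the 36 genes, and for 15 of these the interval of the highest state lay clear of the second in both libraries. No share over all genes was computed for these counts, so they describe the members only. The Dpp4-like state was highest for Bmp2, Bmp7, Tgfbr2, Fstl1 and Ccn1, and the F3-like state for Gdf10, Tgfbr3, Grem1, Chrdl1 and Ccn2. The Nkain3/Itgbl1-led state was highest for Tgfb3, Inhbb, Ltbp2, Ltbp3, Tgfbr1, Smad6, Tgfbi and Id2, and the Adamts4/Tfpi2-led state for Bmpr2, Smad1 and Id3. Ltbp2 in WT Nkain3/Itgbl1-led cells was at 2.31 UPM, below the 3.46 UPM that 3 UMIs would be. No member was highest in Icam1-like cells in both libraries. The 5 Dpp4-like assignments held in 7 of 7 other clusterings in which that state was found, and the 5 F3-like assignments in 5 of 5.

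**Figure D1:**
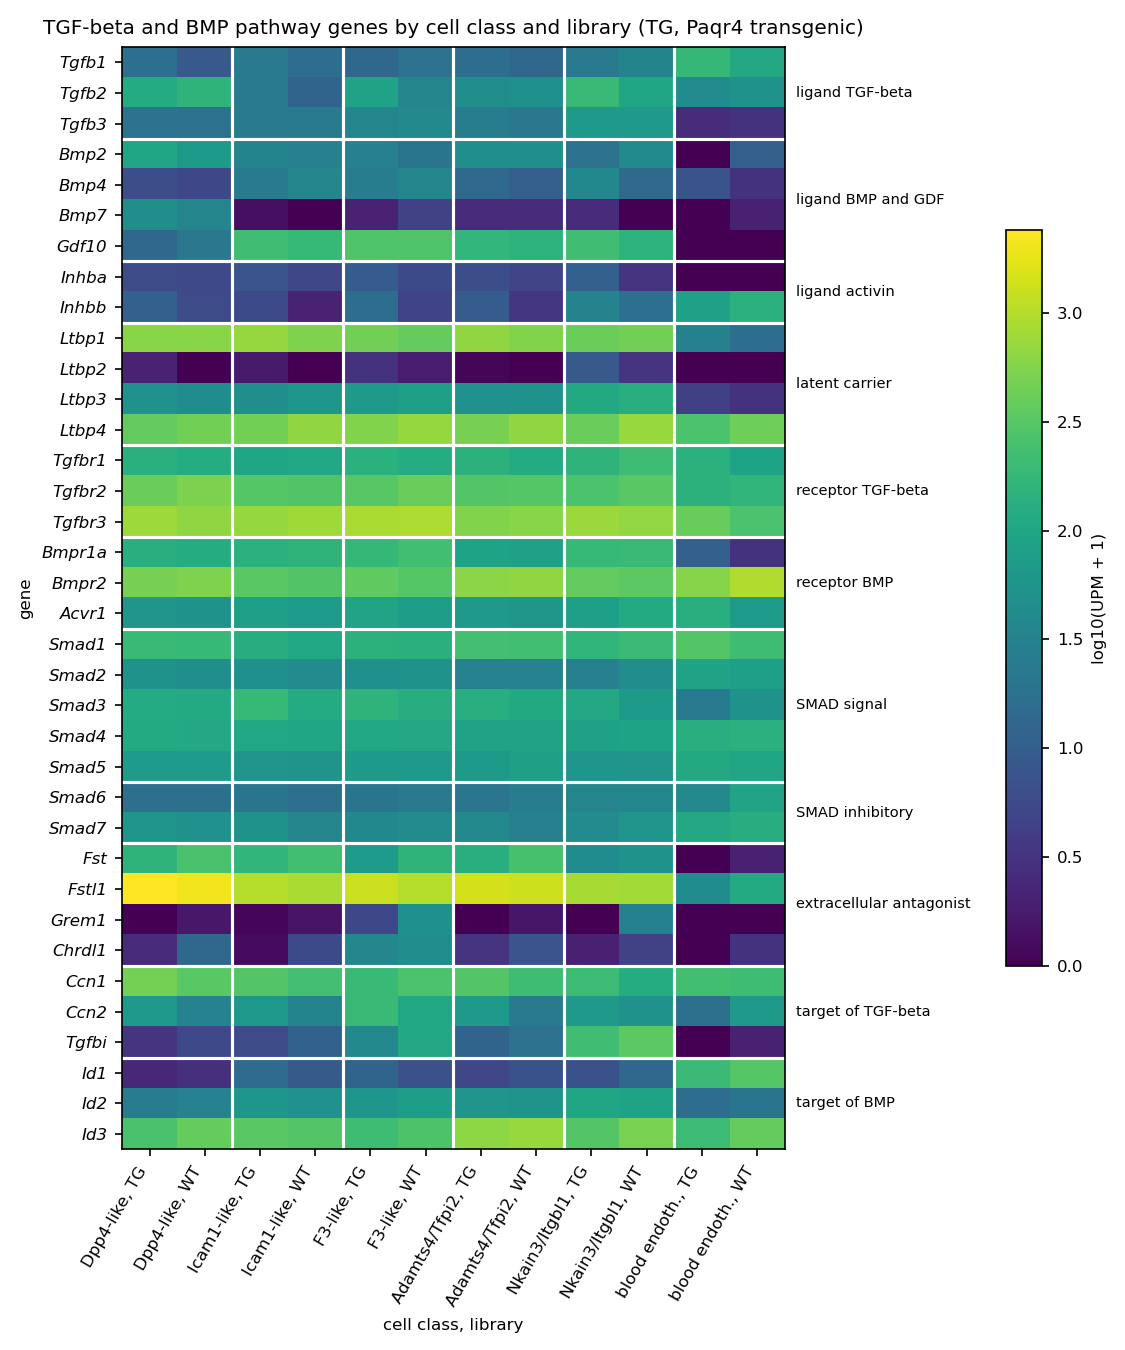
Level of each of the 36 genes (rows, by role) in the 5 progenitor states and blood endothelial cells (column pairs, Paqr4 transgenic left of WT), as log10(UPM + 1). Rows such as Bmp7, Gdf10, Tgfbi and Id1 differ between cell classes. Bmp7 is at 45.2 and 33.1 UPM in Dpp4-like cells and at most 3.50 UPM in every other progenitor state. Some pairs differ between the libraries, such as Grem1 in F3-like cells (4.42 and 48.7 UPM) and Ccn2 in endothelial cells (16.6 and 64.9 UPM).

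Among the ligands, Tgfb1 had a higher level in blood endothelial cells than in progenitors. The more numerous progenitors held more of its UMIs, 494 in the Paqr4 transgenic and 354 in the WT library, against 108 and 104 for Tgfb1 in endothelial cells. It was at 179 UPM in Paqr4 transgenic and 109 UPM in WT endothelial cells, against 18.3 and 13.4 UPM in progenitors, a 9.80-fold and 8.12-fold excess. Tgfb3, in contrast, was higher in progenitors, at 28.9 UPM in Paqr4 transgenic and 25.01 UPM in WT cells, with 1 and 2 UMIs in blood endothelial cells. It was not particular to progenitors, since the few mesothelial cells had it at 43.7 and 90.4 UPM (8 and 21 UMIs). Among the progenitor states, the Nkain3/Itgbl1-led state had the most Tgfb3, 65.4 UPM in Paqr4 transgenic and 66.9 UPM in WT cells. Tgfb2, the third isoform, was spread unevenly over the states: its level spanned 7.67-fold between the lowest and the highest progenitor state in the Paqr4 transgenic and 13.8-fold in the WT library, and the Icam1-like state was lowest in both.

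Between the libraries, Tgfb2 differed by state. It was at 86.7 UPM in Paqr4 transgenic and 35.0 UPM in WT F3-like cells, a log2 ratio of 1.31 (1.02 to 1.61). In Icam1-like cells it was at 24.7 UPM in the Paqr4 transgenic and 11.4 UPM in the WT library, a log2 ratio of 1.11 (0.71 to 1.53), which was 0.22 with cells limited to 5% mitochondrial UMIs and 0.43 at clustering resolution 1.0. In Dpp4-like cells the order was the other way, with 118 UPM in the Paqr4 transgenic and 158 UPM in the WT library. Over all progenitors Tgfb2 was at 70.8 UPM in Paqr4 transgenic and 65.9 UPM in WT cells, close to level. Few cells carried much of it, since 5 cells held 40.0% of the F3-like Tgfb2 UMIs in the Paqr4 transgenic and 36.7% in the WT library.

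Tgfb1 was at 16.1 UPM in Paqr4 transgenic and 7.67 UPM in WT Dpp4-like cells, a log2 ratio of 1.07 (0.52 to 1.63), on 70 and 48 UMIs, of which 5 cells held 35.7% and 62.5%. In Icam1-like cells its log2 ratio was 0.65, but it was −0.11 and −0.02 at clustering resolutions of 0.3 and 1.0, so the direction there depends on how the state is drawn. In F3-like cells Tgfb1 was at 12.8 UPM in the Paqr4 transgenic and 18.1 UPM in the WT library.

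The BMP ligands were tied to states. Bmp7 was almost restricted to Dpp4-like cells, where it was at 45.2 UPM in the Paqr4 transgenic and 33.1 UPM in the WT library and was found in 97 and 100 cells. Icam1-like cells held 3 Bmp7 UMIs in the Paqr4 transgenic and 0 in the WT library, where 3 UMIs, the floor, would be 0.498 UPM. Bmp2 was also highest in Dpp4-like cells, at 99.4 UPM in the Paqr4 transgenic and 68.3 UPM in the WT library. Bmp4, which is known to commit precursors to the adipocyte lineage, ran the other way and was lowest in Dpp4-like cells, at 5.51 UPM in Paqr4 transgenic and 4.48 UPM in WT cells.

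Gdf10 (BMP3b), a ligand of the family that is known to restrain adipogenesis, was lowest in Dpp4-like cells as well. It was at 12.4 UPM in Paqr4 transgenic and 20.6 UPM in WT Dpp4-like cells, against 284 and 282 UPM in F3-like cells, a span of 22.9-fold and 13.7-fold. No Gdf10 UMI was found in endothelial cells of either library, where 3 UMIs would be 4.97 UPM in the Paqr4 transgenic and 3.14 UPM in the WT library. Over all progenitors Gdf10 was at 190 UPM in the Paqr4 transgenic and 145 UPM in the WT library, a log2 ratio of 0.39 (0.33 to 0.45). A UMI of Gdf10 was found in 70.6% of Paqr4 transgenic and 66.9% of WT progenitors, and in 46.6% and 39.0% after thinning each cell to 5000 UMIs. Its Dpp4-like log2 ratio of −0.73 was 0.47 with doublets kept and 0.31 at resolution 0.3.

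Inhba and Inhbb encode the subunits of activin A and activin B. Inhbb had its highest level in blood endothelial cells, at 84.6 UPM in Paqr4 transgenic and 141 UPM in WT endothelial cells. In progenitors it was at 10.8 UPM in the Paqr4 transgenic (292 UMIs) and 3.41 UPM in the WT library (90 UMIs), a log2 ratio of 1.67 (1.32 to 2.02), and the ratio stayed between 1.28 and 1.98 in all 14 settings of the cell filters, clustering, scaling and cell weights. Both values are low, and barcodes with at most 50 UMIs, which hold free RNA rather than cells, had Inhbb at 7.08 UPM in the Paqr4 transgenic and 3.91 UPM in the WT library. After thinning, 4.40% of Paqr4 transgenic and 1.33% of WT progenitors had an Inhbb UMI, against 12.02% and 5.34% unthinned. In endothelial cells the order was the other way, with a log2 ratio of −0.74 (−1.23 to −0.27). Inhba was at 6.81 UPM in Paqr4 transgenic and 4.28 UPM in WT progenitors, with no UMI in endothelial cells of either library.

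The latent TGF-beta binding proteins differed in where they were found. Ltbp1, which covalently binds latent TGF-beta in the secretory pathway, was at 593 UPM in Paqr4 transgenic and 535 UPM in WT progenitors, against 29.8 and 15.7 UPM in endothelial cells. Ltbp3 was at 56.4 UPM in Paqr4 transgenic and 57.9 UPM in WT progenitors, with 2 UMIs in endothelial cells of each library. Ltbp2, which does not bind latent TGF-beta, was nearly absent, with 40 UMIs in Paqr4 transgenic and 5 in WT progenitors, and 5 cells held 52.5% of the Paqr4 transgenic UMIs.

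Ltbp4, which is needed for elastic fibres as well as for TGF-beta1 storage, was lower in the Paqr4 transgenic library in every class compared. It was at 468 UPM in Paqr4 transgenic and 617 UPM in WT progenitors, a log2 ratio of −0.40 (−0.43 to −0.37) that stayed between −0.49 and −0.39 in all 14 settings. The log2 ratio was −0.29 in Dpp4-like, −0.52 in Icam1-like, −0.35 in F3-like, −0.43 in Adamts4/Tfpi2-led and −0.70 in endothelial cells. It was not particular to progenitors, at 264 UPM in Paqr4 transgenic and 427 UPM in WT blood endothelial cells, and the few lymphatic endothelial cells had 55 and 46 UMIs of it. The free RNA of low barcodes was ordered the same way, at 467 UPM in the Paqr4 transgenic and 505 UPM in the WT library.

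The 6 receptors differed by less than 1.5-fold between the libraries in progenitors. Tgfbr2, the type II receptor for TGF-beta, had a UMI in 93.8% of Paqr4 transgenic and 95.9% of WT progenitors, and in 73.4% and 73.2% after thinning to 5000 UMIs. Tgfbr3, the co-receptor betaglycan, had a UMI in 93.2% of thinned Paqr4 transgenic and 91.3% of thinned WT progenitors, and Acvr1 in 27.6% and 24.4%. Free RNA of low barcodes held Tgfbr2 at 176 UPM in the Paqr4 transgenic and 157 UPM in the WT library, and Tgfbr3 at 370 and 240 UPM. Tgfbr2 was at 320 UPM in Paqr4 transgenic and 365 UPM in WT progenitors, a log2 ratio of −0.19. Tgfbr3 was at 717 UPM in Paqr4 transgenic and 705 UPM in WT progenitors, a ratio of 1.02-fold (0.997 to 1.04). Tgfbr1, the type I partner, was at 132 UPM in Paqr4 transgenic and 119 UPM in WT progenitors.

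Of the BMP receptors, Bmpr1a, a type I receptor, separated the lineages most sharply. It was at 139 UPM in Paqr4 transgenic and 131 UPM in WT progenitors, against 6 UMIs (9.95 UPM) and 2 UMIs (2.09 UPM) in endothelial cells. Bmpr2, the type II receptor mutated in heritable pulmonary hypertension in humans, was strong in both lineages, at 587 UPM in Paqr4 transgenic and 934 UPM in WT endothelial cells and 433 and 485 UPM in progenitors. Within progenitors it followed the states, with 616 UPM in Paqr4 transgenic and 655 UPM in WT Adamts4/Tfpi2-led cells against 322 and 285 UPM in Icam1-like cells. Acvr1 (ALK2) was at 75.5 UPM in Paqr4 transgenic and 64.7 UPM in WT progenitors, a log2 ratio of 0.22 (0.13 to 0.32).

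The signalling SMADs varied by at most 2.23-fold over the progenitor states in either library. Smad4, the common partner, spanned 1.33-fold in the Paqr4 transgenic and 1.27-fold in the WT library, and Smad5 spanned 1.28-fold and 1.52-fold. Smad1 was highest in Adamts4/Tfpi2-led cells, at 230 UPM in the Paqr4 transgenic and 227 UPM in the WT library, as were Bmpr2 and Id3 of the same branch. Smad2 was at 87.9 UPM in Paqr4 transgenic and 80.6 UPM in WT endothelial cells, 2.01-fold and 2.00-fold its progenitor level.

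Smad3, which carries TGF-beta and activin signals to DNA, was the signalling SMAD with the largest ratio between the libraries in progenitors. It was at 150 UPM in Paqr4 transgenic and 115 UPM in WT progenitors, a log2 ratio of 0.39 (0.32 to 0.46) that stayed between 0.31 and 0.41 in all 14 settings. In Icam1-like cells it was at 185 UPM in the Paqr4 transgenic and 120 UPM in the WT library, a log2 ratio of 0.63 (0.50 to 0.76) that ran from 0.32 to 0.86 over other clusterings and cell filters, while in Dpp4-like cells the log2 ratio was 0.08 (−0.09 to 0.24). Smad3 had a UMI in 76.8% of Paqr4 transgenic and 72.4% of WT progenitors, and in 44.7% and 37.1% after thinning.

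The inhibitory SMADs were higher in endothelial cells than in progenitors in both libraries. Smad6, which mainly curbs BMP signalling, was at 38.1 UPM in Paqr4 transgenic and 93.1 UPM in WT endothelial cells, against 20.2 and 21.3 UPM in progenitors. Smad7, which curbs TGF-beta signalling as well, was at 109 UPM in Paqr4 transgenic and 128 UPM in WT endothelial cells, against 45.4 and 37.3 UPM in progenitors. Its log2 ratio between the libraries was 0.28 (0.16 to 0.41) in progenitors, and 0.64 (0.39 to 0.89) in Icam1-like cells, there from 0.37 to 0.86 over other clusterings and cell filters.

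Fst, which encodes the activin antagonist follistatin (chr13:114452290-114458951, minus strand, GRCm38), had, over all progenitors, the largest deficit in the Paqr4 transgenic library among the members at 10 UPM or more. It was at 126 UPM in Paqr4 transgenic (3415 UMIs) and 227 UPM in WT progenitors (6011 UMIs), a log2 ratio of −0.85 (−0.91 to −0.79) that stayed between −0.93 and −0.72 in all 14 settings. A UMI of Fst was found in 57.2% of Paqr4 transgenic and 77.7% of WT progenitors. After thinning to 5000 UMIs the shares were 34.2% of Paqr4 transgenic and 52.6% of WT progenitors. In endothelial cells Fst was found in 0 of 79 Paqr4 transgenic and 1 of 95 WT cells, at the lower median depths of 7584 and 9857 UMIs against 19380 and 22671 UMIs in progenitors.

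The Fst deficit was present in each of the 4 states compared. It was at 73.6 UPM in Paqr4 transgenic and 156 UPM in WT F3-like cells, a log2 ratio of −1.08 (−1.26 to −0.90). In Adamts4/Tfpi2-led cells it was at 132 UPM in the Paqr4 transgenic and 250 UPM in the WT library, a log2 ratio of −0.92, and in Dpp4-like cells at 157 and 254 UPM, a log2 ratio of −0.69. The smallest difference was in Icam1-like cells, with 166 UPM in the Paqr4 transgenic and 229 UPM in the WT library, a log2 ratio of −0.47 (−0.58 to −0.36). UMIs of Fst were spread over many cells, since the 5 richest progenitors held 4.83% in the Paqr4 transgenic and 4.24% in the WT library. Free RNA of low barcodes had Fst at 83.4 UPM in the Paqr4 transgenic and 102 UPM in the WT library.

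Fstl1, a secreted relative of follistatin, was highest in Dpp4-like cells, at 2392 UPM in the Paqr4 transgenic and 2034 UPM in the WT library. Over all progenitors it was nearly level, with 1395 UPM in the Paqr4 transgenic and 1336 UPM in the WT library. Chrdl1, an X-linked BMP antagonist, was highest among the progenitor states in F3-like cells, at 35.3 UPM in the Paqr4 transgenic and 44.9 UPM in the WT library. A Chrdl1 UMI was found in 15.9% of Paqr4 transgenic and 26.8% of WT F3-like cells. In Dpp4-like cells Chrdl1 had 7 UMIs in the Paqr4 transgenic and 77 in the WT library. Over all progenitors the log2 ratio of Chrdl1 was −0.47, but it ran from −0.83 to 0.21 over the 14 settings.

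Grem1, the BMP antagonist gremlin, came from very few cells. It had 28 UMIs in Paqr4 transgenic and 206 UMIs in WT progenitors, of which 5 cells held 82.1% and 62.6%. The F3-like state held most of them, 27 UMIs in 9 Paqr4 transgenic cells and 167 UMIs in 16 WT cells. The log2 ratio of −2.91 in progenitors thus describes a handful of cells.

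**Figure D2:**
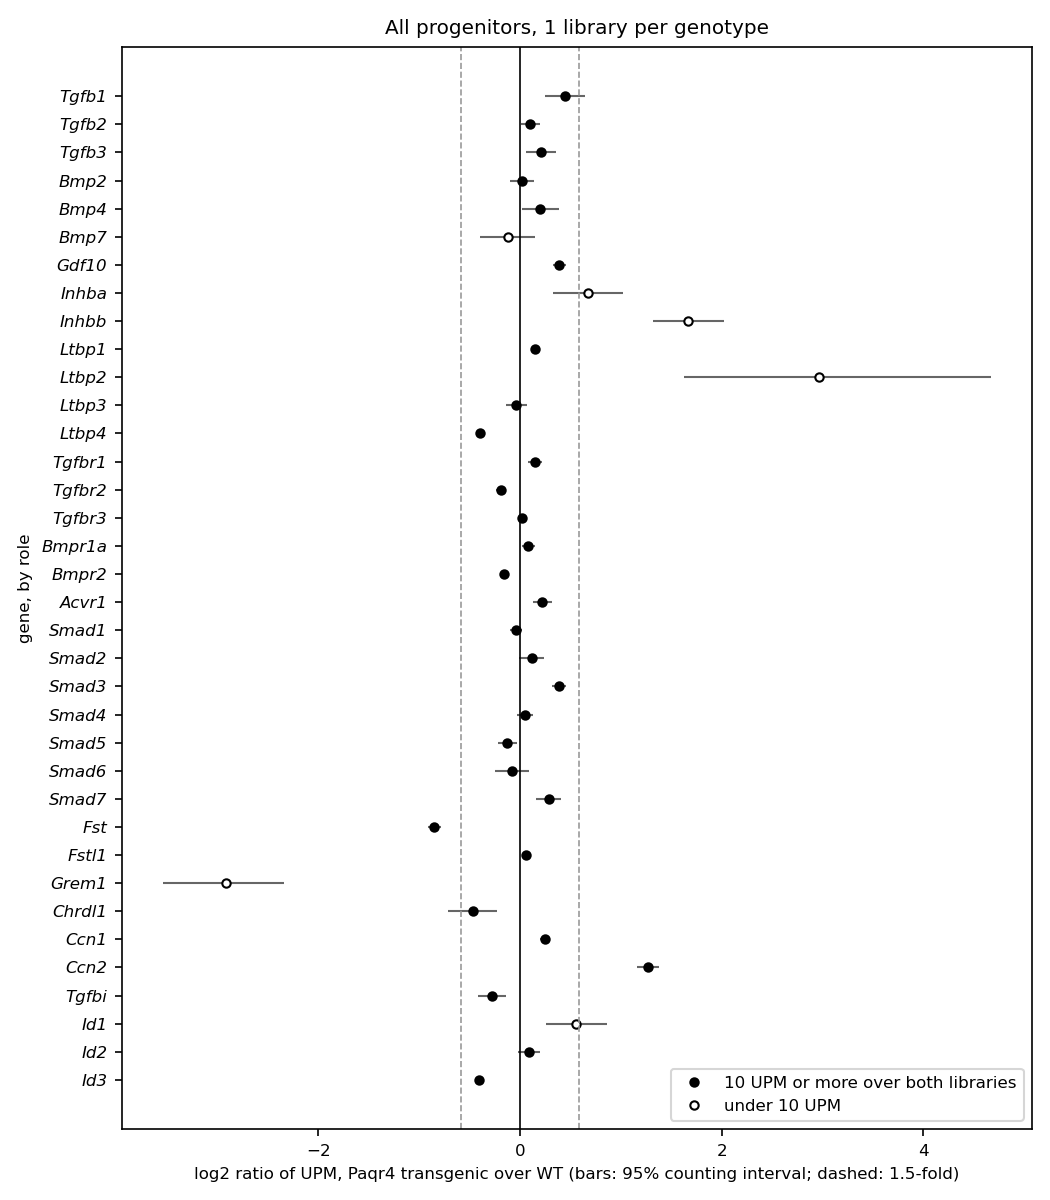
Log2 ratio of the level in progenitors, Paqr4 transgenic over WT, for the 36 genes by role, with 95% counting intervals (horizontal bars) and 1.5-fold marked by dashed lines. Most genes lie near 0, and of the filled points (10 UPM or more over both libraries) Ccn2 at 1.27 lies beyond the right and Fst at −0.85 beyond the left dashed line.

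Ccn2 (connective tissue growth factor, chr10:24595442-24598683, plus strand, GRCm38), a target of TGF-beta and of YAP and TEAD, had, over all progenitors, the largest excess in the Paqr4 transgenic library among the members at 10 UPM or more. It was at 92.3 UPM in Paqr4 transgenic (2496 UMIs) and 38.4 UPM in WT progenitors (1014 UMIs), a log2 ratio of 1.27 (1.16 to 1.37) that stayed between 0.87 and 1.39 in all 14 settings. A UMI was found in 28.5% of Paqr4 transgenic and 19.6% of WT progenitors, and in 16.8% and 9.29% after thinning. F3-like cells had the most Ccn2, 191 UPM in the Paqr4 transgenic and 104 UPM in the WT library, and more of the Paqr4 transgenic progenitors were F3-like.

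Within states the Ccn2 excess was present in all 4 compared. The log2 ratio was 0.87 (0.70 to 1.05) in F3-like, 1.04 (0.77 to 1.32) in Dpp4-like and 1.50 (1.27 to 1.74) in Adamts4/Tfpi2-led cells. In Icam1-like cells it was 0.96 (0.72 to 1.21), but −0.27 when the state was drawn at resolution 1.0. Many UMIs sat in few cells, with the 5 richest Dpp4-like cells holding 34.7% in the Paqr4 transgenic and 60.2% in the WT library. Free RNA of low barcodes had Ccn2 at 59.6 UPM in the Paqr4 transgenic and 29.5 UPM in the WT library. In endothelial cells the order was the other way, with 10 UMIs (16.6 UPM) in the Paqr4 transgenic and 62 UMIs (64.9 UPM) in the WT library, and 5 cells held 70.0% and 62.9% of these.

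Ccn1 (CYR61), the closest relative of Ccn2 here, differed less and not in the same way. It was at 295 UPM in Paqr4 transgenic and 249 UPM in WT progenitors, a log2 ratio of 0.25 (0.20 to 0.29). Its log2 ratio was 0.52 in Dpp4-like, 0.35 in Icam1-like and 0.46 in Adamts4/Tfpi2-led cells, with a range of −0.05 to 0.39 in Icam1-like cells over other clusterings and cell filters. In F3-like cells it was lower in the Paqr4 transgenic library, at 197 UPM against 266 UPM in the WT library, a log2 ratio of −0.43 (−0.56 to −0.31). Ccn1 and Ccn2 thus had opposite orders between the libraries in F3-like cells, the state with the most Ccn2.

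Tgfbi, a secreted matrix protein named for its induction by TGF-beta, was concentrated in the Nkain3/Itgbl1-led state at 221 UPM in Paqr4 transgenic and 336 UPM in WT cells, 96.1-fold and 72.4-fold the lowest state. In F3-like cells it was at 37.8 UPM in the Paqr4 transgenic and 108 UPM in the WT library, a log2 ratio of −1.52 (−1.76 to −1.28). Adamts4/Tfpi2-led cells had 11.2 UPM in the Paqr4 transgenic and 17.8 UPM in the WT library. Over all progenitors the log2 ratio was −0.28 and ran from −0.78 to 0.20 over the 14 settings, so its direction there is not settled. In F3-like cells, then, Ccn2 was higher and both Ccn1 and Tgfbi were lower in the Paqr4 transgenic library.

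Of the BMP targets, Id1 had a higher level in endothelial cells, at 201 UPM in Paqr4 transgenic and 303 UPM in WT endothelial cells, against 8.36 and 5.68 UPM in progenitors. Id proteins are helix-loop-helix factors that lack a DNA-binding domain and block differentiation factors. Id3 was shared by both lineages and was at 363 UPM in Paqr4 transgenic and 481 UPM in WT progenitors, a log2 ratio of −0.41 (−0.44 to −0.37). The ratio varied by state: −0.56 in Dpp4-like, −0.38 in F3-like, −0.21 in Adamts4/Tfpi2-led and 0.14 in Icam1-like cells, where the direction was not settled (−0.20 to 0.65 over other clusterings and cell filters). Adamts4/Tfpi2-led cells had the most Id3, 630 UPM in the Paqr4 transgenic and 729 UPM in the WT library, and made up fewer of the Paqr4 transgenic progenitors. Id2 was at 55.4 UPM in Paqr4 transgenic and 52.0 UPM in WT progenitors, a log2 ratio of 0.09 (−0.02 to 0.20). Free RNA of low barcodes held Id1 at 12.1 UPM in the Paqr4 transgenic and 19.3 UPM in the WT library, and Id3 at 380 and 474 UPM.

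**Figure D3:**
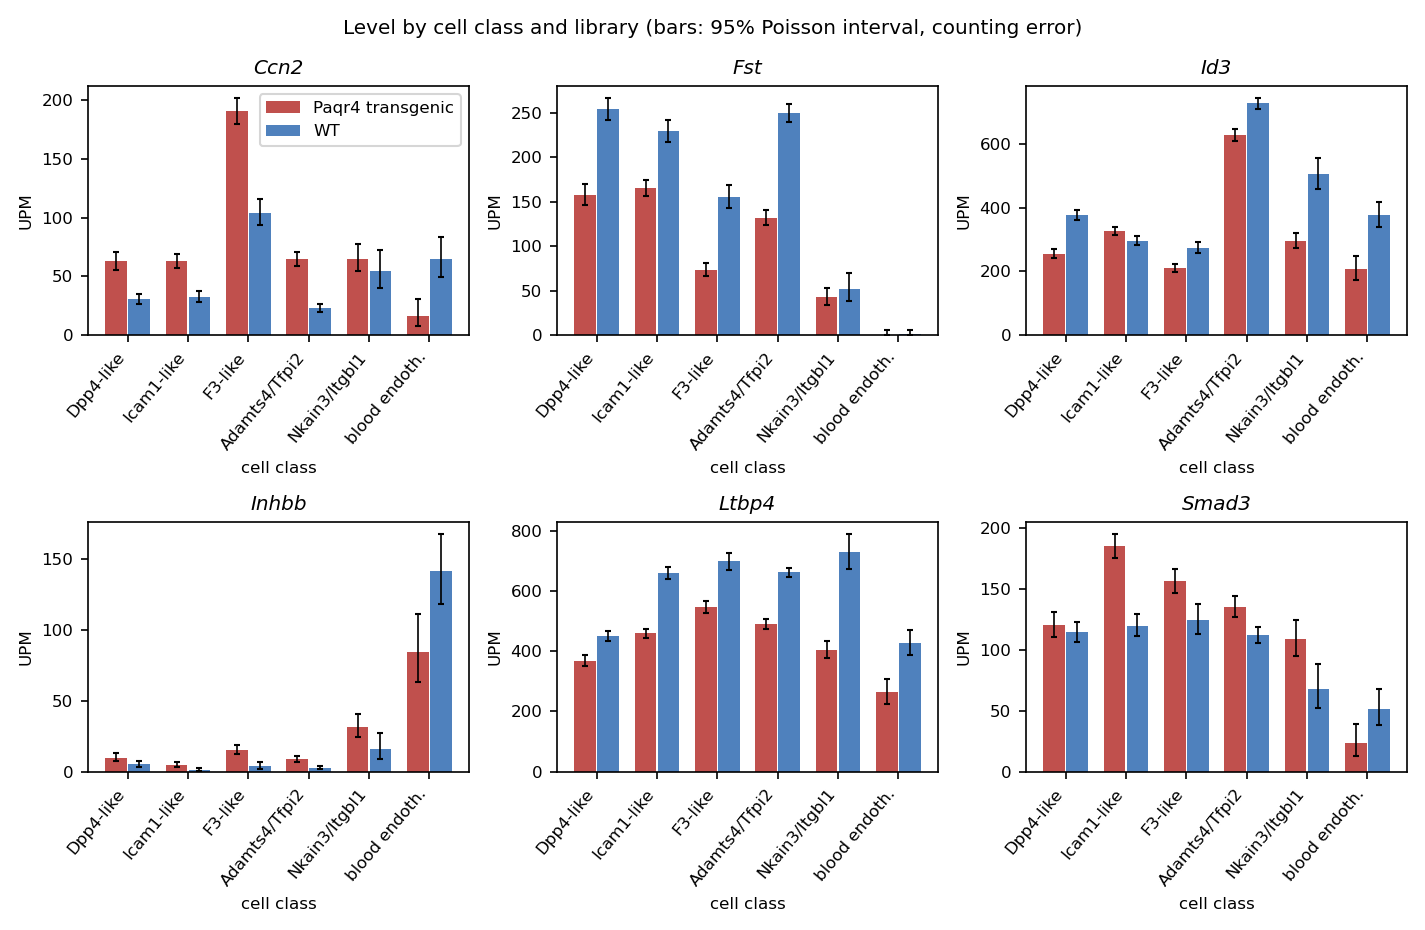
UPM of Ccn2, Fst, Id3, Inhbb, Ltbp4 and Smad3 in 5 progenitor states and blood endothelial cells, with the Paqr4 transgenic library as the left and WT as the right bar of each pair and 95% Poisson intervals of counting error. Ccn2 is higher in the Paqr4 transgenic library in each of the 4 states compared between libraries and lower in endothelial cells (16.6 and 64.9 UPM), Fst is lower in those 4 states, and Inhbb is highest in endothelial cells.

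Counted over the members, differences of 1.5-fold or more in progenitors were few. At 10 UPM or more over both libraries stood 30 of the 36 members, with Bmp7, Inhba, Inhbb, Ltbp2, Grem1 and Id1 under this floor. Of the 30, Ccn2 was higher and Fst lower in the Paqr4 transgenic library, 3.33% each way, where 2.4% of all 8537 genes at this floor were higher and 1.48% lower. The median log2 ratio was 0.07 for the members and 0.09 for all genes. These shares are near those of all genes. With equal weight for each state, Chrdl1 and Tgfbi were lower beside Fst, where 1.99% of all genes were higher and 1.89% lower. Without the 5 richest cells of each library for a gene, Chrdl1 was lower beside Fst, where 2.68% of all genes were higher and 1.6% lower. With no floor, Inhba, Inhbb and Ltbp2 were higher beside Ccn2, and Grem1 lower beside Fst, where 11.6% of all genes were higher and 11.1% lower.

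By state, the count was largest in Icam1-like cells. There Tgfb1, Tgfb2, Smad3, Smad7, Ccn2 and Id1 were higher in the Paqr4 transgenic library, 6 of 29 members or 20.7%, and none was lower, where 3.56% of all genes were higher and 3.06% lower. Of these 6 calls, 5 (all but Id1) ended under another clustering or cell filter, and Tgfb1 and Ccn2 changed direction. Id1 was at 14.0 UPM in Paqr4 transgenic and 7.96 UPM in WT Icam1-like cells, with free RNA of low barcodes at 12.1 and 19.3 UPM. The members' median log2 ratio there was 0.18 and that of all genes 0.04. The state joins a cluster of 409 Paqr4 transgenic and 253 WT cells with one of 10 and 35 cells, so the libraries differ in its makeup. F3-like cells had Tgfb2, Inhbb and Ccn2 higher and Fst, Grem1 and Tgfbi lower among 32 members, 9.38% each way, where 4.83% of all genes were higher and 4.2% lower. Of these 6 F3-like calls, none ended under another clustering or cell filter, though Grem1 came from few cells. Among 28 members in Dpp4-like cells Tgfb1 and Ccn2 were higher and Gdf10, whose call ended in other settings, and Fst lower, where 5.62% of all genes were higher and 3.55% lower. In Adamts4/Tfpi2-led cells Ccn2 was higher and Fst and Tgfbi lower among 29 members, the Tgfbi call ending at −0.56, where 3.21% of all genes were higher and 2.59% lower.

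Markers of other cell types in progenitors were low in both libraries, with the 8 endothelial markers summing to 14.5 UPM in Paqr4 transgenic and 10.2 UPM in WT progenitors, and the 8 pericyte or smooth muscle markers to 38.5 and 35.9 UPM. The 6 B or plasma cell markers summed to 134 UPM in Paqr4 transgenic and 1.59 UPM in WT progenitors, and to 586 and 0.583 UPM in F3-like cells, where 2 and 4 of the 6 were at 0. The 6 mesothelial markers summed to 0.818 UPM in Paqr4 transgenic and 16.6 UPM in WT F3-like cells, with 4 and 0 of the 6 at 0. Erythroid markers were high in both, the 6 summed to 6211 UPM in Paqr4 transgenic and 6887 UPM in WT progenitors. Their part in the differences was not tested.

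Many of these genes differed in level between endothelial cells and progenitors. The endothelial level was at least 1.5-fold above the progenitor level in both libraries for Tgfb1, Inhbb, Smad2, Smad6, Smad7 and Id1, and at least 1.5-fold below it in both for 16 members, among them Tgfb3, Bmp2, Bmp4, Gdf10, Bmpr1a, Fst and Fstl1. The remaining 14 met neither rule. Where endothelial cells held no UMI of a gene, the count was taken as 3 UMIs, so the ratio is a bound. No share over all genes was computed for this comparison, so the counts describe these members only. Id1 was 24.0-fold above progenitors in the Paqr4 transgenic and 53.5-fold in the WT library. Inhbb was 7.83-fold above in the Paqr4 transgenic and 41.5-fold in the WT library.

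**Figure D4:**
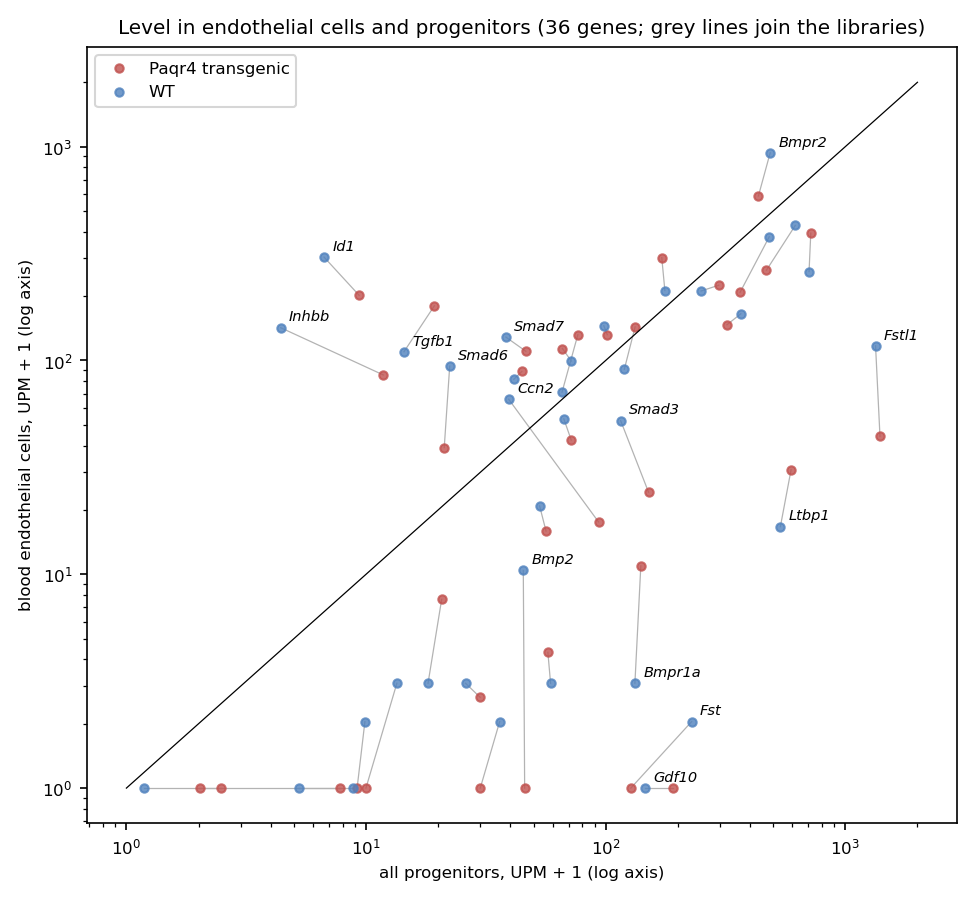
Level of each gene in blood endothelial cells against its level in all progenitors, both as UPM + 1 on log axes, with the Paqr4 transgenic and WT libraries joined by a grey line and equality as the black diagonal. Id1, Inhbb and Tgfb1 lie above the diagonal in both libraries, with Id1 at 201 and 303 UPM in endothelial cells, and Gdf10, Bmpr1a and Fst lie far below it.

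Between the libraries, 23 members were at 10 UPM or more in endothelial cells. Tgfb1, Ltbp1, Tgfbr1, Tgfbr3 and Acvr1 were higher in the Paqr4 transgenic library, and Inhbb, Ltbp4, Bmpr2, Smad3, Smad6, Fstl1, Ccn2, Id1 and Id3 lower. These are 21.7% higher and 39.1% lower, where 13.6% of all 8689 genes were higher and 17.9% lower. A 1.5-fold difference was thus common among all genes in these cells, and the members' shares were larger. The cause was not tested. Of the 14 calls, 5 ended under another clustering or cell filter (Tgfbr1, Tgfbr3, Smad3, Fstl1 and Id1), and Ltbp1 rested on 18 Paqr4 transgenic and 15 WT UMIs, with an interval of −0.14 to 2.02 around a log2 ratio of 0.93. Bmpr2 was at 587 UPM in Paqr4 transgenic and 934 UPM in WT endothelial cells, a log2 ratio of −0.67 (−0.85 to −0.49). The BMP targets Id1 and Id3 were also lower, Id1 at a log2 ratio of −0.60 (−0.92 to −0.29) and Id3 at −0.87 (−1.17 to −0.57), and the inhibitor Smad6 at −1.29 (−2.02 to −0.61). Of the BMP genes, however, Acvr1 was higher, at 0.90 (0.41 to 1.39), as was Smad1, at 0.51 (0.22 to 0.81). Among the TGF-beta genes, Tgfbr1 had a log2 ratio of 0.66 (0.22 to 1.11) on 86 UMIs in each library. Tgfbr3 was at 393 UPM in Paqr4 transgenic and 260 UPM in WT cells. Tgfbr2 had a log2 ratio of −0.17 (−0.56 to 0.21) and Ltbp4 one of −0.70 (−0.97 to −0.43), so neither branch ran one way. Ccn2 and Smad3 had few endothelial UMIs in the Paqr4 transgenic library, 10 and 14, and 5 cells or fewer held 70.0% and 100% of them.

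Progenitor transcripts also differed in these endothelial cells, where the 6 progenitor markers summed to 77.9 UPM in the Paqr4 transgenic and 239 UPM in the WT library, and the macrophage markers to 16.6 and 112 UPM with 4 of 6 at 0 in each. The 6 adipocyte markers ran the other way, at a summed 275 UPM in Paqr4 transgenic and 77.4 UPM in WT endothelial cells, with 1 and 3 of 6 at 0. Fstl1, a progenitor transcript, was at 43.1 UPM in Paqr4 transgenic and 116 UPM in WT endothelial cells, a log2 ratio of −1.43 that was −0.26 with doublets kept. The part of these transcripts in the endothelial differences was not tested. The 16 immediate early genes, which respond to tissue dissociation, summed to 9290 UPM in Paqr4 transgenic and 6964 UPM in WT endothelial cells. Of the 16, 6 were higher by 1.5-fold or more in the Paqr4 transgenic library and none lower, where 13.6% of all genes were higher and 17.9% lower. Whether handling had a part was not tested.

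The rarer stromal cells were too few to compare. Lymphatic endothelial cells, 6 in each library, had Tgfbr2 at 1031 UPM in the Paqr4 transgenic (58 UMIs) and 707 UPM in the WT library (45 UMIs). Tgfbi had 21 UMIs there in the Paqr4 transgenic and 11 in the WT library, while blood endothelial cells had 0 and 1 Tgfbi UMIs. Mesothelial cells, 11 in each library, had Bmp4 at 131 UPM in the Paqr4 transgenic (24 UMIs) and 51.6 UPM in the WT library (12 UMIs). An unnamed cluster led by Clps, Ctrb1 and Cela3b (5 Paqr4 transgenic and 25 WT cells) entered none of the classes described. The same holds for an epithelial cluster of 6 and 9 cells.

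Of 58 further genes of the pathway, 35 were at 10 UPM or more in progenitors. Fstl3, a secreted activin and myostatin antagonist related to follistatin, was the gene among them that differed by 1.5-fold or more, at 15.2 UPM in Paqr4 transgenic (411 UMIs) and 7.27 UPM in WT progenitors (192 UMIs), a log2 ratio of 1.07 (0.81 to 1.32), against the 2.4% higher and 1.48% lower of all genes. Fst and Fstl3 thus differed between the libraries in opposite directions. The median log2 ratio of the 35 was 0.01. In endothelial cells 32 of the 58 reached the floor, with 4 higher and 9 lower in the Paqr4 transgenic library, where 13.6% of all genes were higher and 17.9% lower, and with a median log2 ratio of −0.08.

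The immediate early genes were nearly level in their sum over progenitors, at 18398 UPM in the Paqr4 transgenic and 19742 UPM in the WT library, with none of the 16 differing by 1.5-fold. The most abundant were Egr1, at 3233 UPM in the Paqr4 transgenic and 3297 UPM in the WT library, and Fos, at 2906 and 2955 UPM. By state, 1 was lower by 1.5-fold or more in Dpp4-like cells (Zfp36) and 2 in F3-like cells (Egr2 and Dusp1). Among all genes 3.55% and 4.2% were lower there. Over all progenitors, log2 ratios of single immediate early genes ran from −0.56 for Zfp36 to 0.32 for Ier2. Whether handling differed between the libraries was not tested. Across progenitor cells thinned to 5000 UMIs, Id3 ran with the sum of the immediate early genes at a Spearman rho of 0.31 over 1342 Paqr4 transgenic and 0.32 over 1130 WT cells. Within the Adamts4/Tfpi2-led state, which had the most Id3, the rho was 0.05 in the Paqr4 transgenic and 0.07 in the WT library. In the same order it was 0.24 and 0.34 in Dpp4-like, 0.40 and 0.32 in Icam1-like and 0.31 and 0.36 in F3-like cells. In Nkain3/Itgbl1-led cells it was 0.28 and 0.52, over 110 and 42 cells. For Ccn2 the rho over all progenitors was −0.01 in the Paqr4 transgenic and −0.02 in the WT library. Cells of a library share their depth and handling, so these correlations only describe the libraries.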

How the data were processed

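The deposited files hold whole-number UMI counts per gene and barcode, made by the authors with Cell Ranger on the mm10 build. The submitters' processing notes give version 7.0.0 and the matrix header gives version 4, which was not settled. Features that shared a symbol were summed.

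Barcodes with at least 1000 UMIs, at least 500 genes and at most 10% mitochondrial UMIs were kept, and 4 Paqr4 transgenic and 1 WT doublets called by Scrublet were removed, so few doublets were called. With scanpy 1.11.5, counts scaled to 10000 per cell were clustered on 1986 of 2000 variable genes, leaving out members, sex-linked and haemoglobin genes (30 components, 15 neighbours, Leiden resolution 0.5), without batch correction. A cluster took a class name when at least 50% of that class's markers, and at least 3, were on, and a progenitor state name when at least 50% of its markers were 1.5-fold above other progenitors. These thresholds were chosen after the clusters were seen.

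UMIs were summed per library and class and divided by the class total (UPM). Intervals are exact Poisson (levels), Clopper-Pearson (shares) and conditional binomial (ratios), and cover counting error only. Counts and medians over genes use those at 10 UPM or more over both libraries, a difference counts from 1.5-fold, and classes are compared from 50 cells in each library. With 1 library for each genotype no test was made. The script was tested on simulated data. Gene coordinates are from GENCODE M21 and promoters from RefSeq. All 36 members are described, and other pathway genes were named when they differed by 1.5-fold or more in progenitors. The members and gene lists were chosen with earlier results of these data known. Alternatives to the cell filters, clustering, scaling, cell weighting and floor were computed, and 2 kinds of within-class alternative were added after seeing the data.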

Additional observations from a re-analysis of the deposited data

Results flagged for a closer look

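For 4 genes the ratio of the Paqr4 transgenic over the WT library pointed one way in a progenitor state and the other way in blood endothelial cells, by 1.5-fold or more in each. The difference between the classes was not tested, since each genotype had 1 library. In endothelial cells 13.6% of all genes were higher and 17.9% lower by 1.5-fold or more. In the 4 progenitor states compared, 3.21% to 5.62% were higher and 2.59% to 4.2% lower. No share of all genes with such opposite ratios was computed. The log2 ratio of Ccn2 was 1.04 in Dpp4-like, 0.96 in Icam1-like, 0.87 in F3-like and 1.50 in Adamts4/Tfpi2-led cells, against −1.97 in endothelial cells, where it had 10 UMIs in the Paqr4 transgenic and 62 in the WT library. For Inhbb it was 2.01 in F3-like cells (13 WT UMIs, 3.79 UPM, with WT free RNA at 3.91 UPM) and −0.74 in endothelial cells. For Smad3 it was 0.63 in Icam1-like and −1.14 in endothelial cells, where all 14 Paqr4 transgenic UMIs came from 4 cells, and both fell short of 1.5-fold in other settings (0.32 in Icam1-like cells at resolution 1.0, −0.50 in endothelial cells with doublets kept). For Id1 it was 0.82 in Icam1-like and −0.60 in endothelial cells, the second running from −0.76 to −0.52 over other settings. The Icam1-like Id1 levels were 14.0 UPM in the Paqr4 transgenic and 7.96 UPM in the WT library, with free RNA at 12.1 and 19.3 UPM. The Icam1-like value of Ccn2 was −0.27 at resolution 1.0.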

How the results depend on the processing

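No paired analysis was possible because each genotype has 1 library, and for the same reason no replicate could be left out. The direction in progenitors was the same in all 14 settings for 21 members and not for the other 15, which were Tgfb3, Bmp2, Bmp7, Ltbp3, Tgfbr3, Bmpr1a, Bmpr2, Smad1, Smad2, Smad4, Smad6, Fstl1, Chrdl1, Tgfbi and Id2. The median log2 ratio of members in progenitors was −0.00676 with a median-of-ratios factor, which shifts all ratios by 0.079, and 0.145 with cells thinned to 5000 UMIs. The number of members lower by 1.5-fold or more in the Paqr4 transgenic library was 3 with equal weight for each progenitor state (Fst, Chrdl1 and Tgfbi, where 1.89% of all genes were lower) and 2 without the 5 richest cells of each library (Fst and Chrdl1, where 1.6% were). With no floor, 4 members were higher (Ccn2, Inhba, Inhbb and Ltbp2) and 2 lower (Fst and Grem1), where 11.6% of 19114 genes were higher and 11.1% lower. Within a class, the direction differed between settings for 37 of 141 member ratios, of which 34 were under 1.5-fold as reported and 17 were in Icam1-like cells. The 3 with a reported ratio of 1.5-fold or more were Gdf10 in Dpp4-like cells (0.47 with doublets kept, 0.31 at resolution 0.3), Tgfb1 in Icam1-like cells (−0.11 at resolution 0.3, −0.024 at 1.0) and Ccn2 in Icam1-like cells (−0.27 at 1.0), and the cause was not tested. Of the other member ratios under an alternative, 393 in progenitors and 696 within a class stayed inside the counting interval of the reported ratio, and 75 and 141 did not. In blood endothelial cells 3 UMIs are 4.97 UPM in the Paqr4 transgenic and 3.14 UPM in the WT library, which limits what can be seen there.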
